A study of Mus musculus with 360 samples.

Results

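The genes described here encode the proteins of elastic fibres and of the microfibrils that such fibres grow on. They are Fbn1, Fbn2, Eln, Fbln1, Fbln2, Fbln5, Mfap2, Mfap4, Mfap5 and Emilin1, 10 of the 24015 genes in the tables, and all 10 were listed in every table. They were chosen by function, with earlier values of these same cells in view, and thus also selected on measured values, namely the reads and shares of cells per tissue and the level of Fbn2 in one suture against that of Fbn1. Differences between tissues are therefore given as descriptions. The cells were single CD51+;CD200+ cells, a surface phenotype taken by the study to mark skeletal stem and progenitor cells, sorted from wild-type CD-1 mouse pups on postnatal day 3. The sort also gated out cells bearing CD105, 6C3, Thy1.1 or Thy1.2, Tie2, Ter119 or CD45. No group had a mutation or a treatment, and the groups were 4 tissues. PF is the posterior frontal suture of the skull, which fuses in early life. SAG and COR are the sagittal and the coronal suture, which remain patent, and GP is the growth plate of the tibia, a cartilage of a long bone, taken as a reference. Tissue of many pups was combined and no animal was named for any cell, so each tissue is 1 sample. The cells of each tissue were on 2 plates, and the difference between these plates is the only spread available. No test could be run and no p-value is given.

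Microfibrils are beaded filaments of the extracellular matrix whose backbone is made of fibrillins. In elastic tissues they serve as a scaffold on which soluble elastin is laid down, with fibulins guiding the assembly and lysyl oxidases crosslinking the product. Microfibrils also occur without elastin, for example around cartilage and in periosteum, and they hold latent TGF-beta in the matrix. Loss of fibrillin-1 causes Marfan syndrome, in which bones overgrow, and fibrillin-2, the form best known from developing tissue, is affected in congenital contractural arachnodactyly.

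Of 360 cells, 325 were kept, those with 500 or more detected genes and 10000 or more reads. PF had 87 cells (34 on plate 1 and 53 on plate 2), COR 74 (16 and 58), GP 78 (20 and 58) and SAG 86 (30 and 56). Levels are in CPM, that is reads summed over the cells of a tissue or plate per 1000000 reads other than those of Rn45s, the ribosomal RNA precursor. Median reads other than Rn45s per cell ran from 125830 to 511698 over the plates. SAG plate 2 stood apart. Rn45s took 86.8% of its reads, against 20.2% to 30.96% on the other plates, and its cells had a median of 875 genes with a read, against 2111.5 to 3867 elsewhere. Levels of the family in SAG are therefore given for each plate. Among the genes of the sort, Itgav, which encodes CD51, was at 75.2 to 90.3 CPM in the tissues and Cd200 at 123 to 179 CPM, while Tek, which encodes Tie2, had 0 reads. Ptprc, which encodes CD45, reached 1.39 CPM in PF and less in the other tissues, and Thy1 reached 1.06 CPM in PF. Other gated-out genes had reads in a few cells. Enpep, which encodes 6C3, was at 34.7 CPM in SAG, 14.1 in COR, 9.18 in PF and 5.69 in GP, in 3 to 6 cells per tissue. Eng, which encodes CD105, was at 20.4 CPM in SAG, 13.3 in COR and 5.28 in PF, in 4 cells of each, and at 0 in GP.

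Nearly all cells had reads of the family, and Mfap2 and Mfap4 were its highest genes in PF, COR and GP. At least 1 of the 10 genes had a read in 93.1% of PF cells, 95.9% of COR cells, 93.6% of GP cells and 93.3% and 94.6% of cells on the SAG plates. The median cell of GP had reads of 6 of the genes, that of PF 5, that of COR 4, and those of the SAG plates 3 and 2. Together the 10 genes stood at 6579 CPM in PF (4415 on plate 1 and 7104 on plate 2), 5628 in GP (8341 and 5058), 4841 in COR (1654 and 5199.8) and 1765 in SAG (974 and 2291). The plates of PF, COR and GP overlapped in this sum, and both SAG plates lay below both plates of PF and of GP. Levels of different genes are compared only after division by exon length. On that scale, in CPM per kilobase, Mfap2 was first and Mfap4 second on all plates of PF, COR and GP and on SAG plate 2, at 2211 and 933 in PF and 1525 and 885 in COR. On SAG plate 1 Mfap2 was first at 303, followed by Emilin1 at 63.96 and Mfap4 at 57.5. At the other end, Fbln5, Mfap5, Fbn2 and Fbn1 lay between 15.7 and 17.1 CPM per kilobase in PF, in an order that differed between its plates. In COR, Fbn2 at 0.628 and Mfap5 at 1.36 were the lowest, Mfap5 being the lower on plate 1 and Fbn2 on plate 2.

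**Figure D1:**
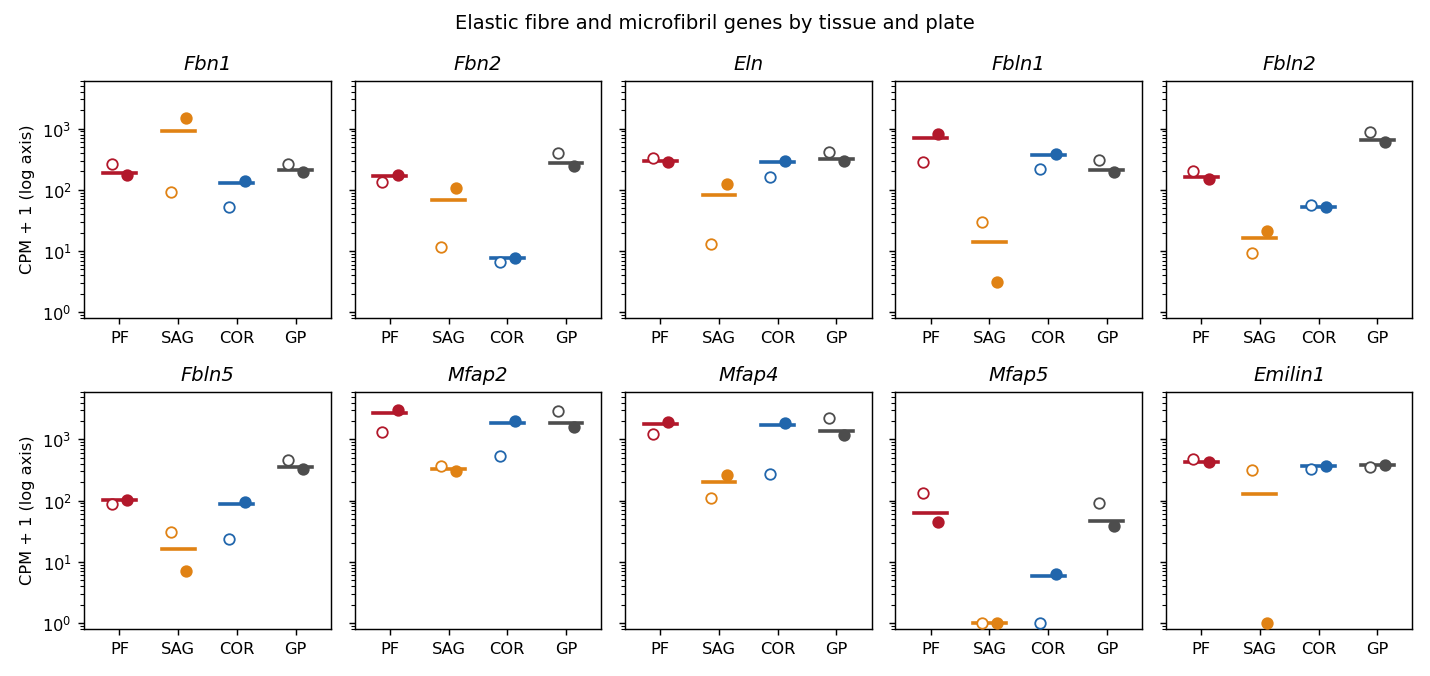
Level of each of the 10 genes as CPM + 1 on a log axis, by tissue. Open points are plate 1, filled points plate 2, and the bar is the whole tissue. Fbn2 in COR lies near 6 CPM on both plates, Mfap5 has no read on either SAG plate, and Fbn1 and Emilin1 differ between the SAG plates in opposite directions.

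Fbn2 was the gene of the family with the widest gap between PF and COR. It encodes fibrillin-2 and lies on chromosome 18 of the mm9 build. Its level was 136 and 174 CPM on the PF plates, 5.56 and 6.70 on the COR plates, 393 and 245 on the GP plates and 10.6 and 106 on the SAG plates. Both PF plates and both GP plates were above every plate of SAG and COR. The tissue level was 25.3-fold higher in PF (167 CPM) than in COR (6.59 CPM). This is a log2 ratio of CPM + 1 of 4.47, and the 4 ratios of a PF plate to a COR plate ran from 4.15 to 4.74. GP exceeded PF by 1.63-fold, with all plate ratios of one sign but a log2 ratio below 1. A single PF cell, on plate 2, gave 23.8% of the Fbn2 reads of PF. Without the cell with the most Fbn2 reads, PF was at 129.6 CPM and COR at 4.33 CPM. On SAG plate 2, 3 cells gave 92.8% of the Fbn2 reads. Reads of Fbn2 were found in 36 of 87 PF cells (41.4%), 4 of 74 COR cells (5.41%), 41 of 78 GP cells (52.6%), 8 of 30 cells of SAG plate 1 (26.7%) and 4 of 56 of SAG plate 2 (7.14%). When every cell was thinned to 100000 reads, the shares were 37.1% in PF, with a 95% exact binomial interval of 25.9% to 49.5%, and 5.63% in COR, with an interval of 1.56% to 13.8%. The level within positive cells also differed, with a median of 409 CPM over the positive cells of PF and 129 CPM over the 4 of COR. These intervals cover counting error only, as a read is no molecule and a cell no animal.

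Fbn1, which encodes fibrillin-1 (chr2:125126330-125333729, minus strand, mm9), did not share this pattern. Its levels were 261 and 173 CPM on the PF plates, 52.2 and 138 on the COR plates and 260.3 and 197 on the GP plates. PF was above COR on all plates, but with a log2 ratio of only 0.55, and PF and GP overlapped. Fbn1 was read in 45.98% of PF cells, 29.7% of COR cells and 57.7% of GP cells. SAG was split, with 90.9 CPM on plate 1 and 1469.7 CPM on plate 2, a 16.2-fold gap between plates of one tissue and the widest of Fbn1 in any tissue. On SAG plate 2, 35 of 56 cells had Fbn1 reads at a median of 1383 CPM, and 1 cell reached 13279 CPM. The direction of Fbn1 between SAG and the other tissues hence depended on the plate. On plate 1 it was 1.06 below PF on the log2 scale, and over both plates it was 4.83-fold above PF. In the mm9 annotation 20.1% of the exon bases of Fbn1 lie opposite to a second gene model, Gm9913, which is not listed in the tables. The use of strand in counting is not given in the sources used here, so reads of that model cannot be told apart from reads of Fbn1. Fbn2 has no such overlap and shares no stretch of 50 bases with Fbn1.

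The balance of the 2 fibrillins separated the tissues into 2 pairs. Fbn2 made up 46.7% of fibrillin reads in PF (34.2% and 50.1% on plates 1 and 2) and 56.6% in GP (60.2% and 55.4%). It made up 4.85% in COR (9.63% and 4.63%) and 6.86% in SAG (10.5% and 6.71%). The lowest plate of PF and GP stood at 34.2% and the highest of COR and SAG at 10.5%, so the SAG plates were close in this share of reads, although Fbn1 differed 16.2-fold between them. Per length, Fbn2 stood at 1.01 times Fbn1 in PF, but at 0.60 times on plate 1 and 1.16 times on plate 2. In GP it stood at 1.51 times Fbn1, with 1.75 and 1.44 on the plates. By contrast, Fbn1 stood at 16.97 times Fbn2 in COR and 7.40 and 12.02 times on the SAG plates. In single cells, reads of both fibrillins were found in 27 cells of PF, of Fbn1 alone in 13 and of Fbn2 alone in 9. In GP these numbers were 36, 9 and 5, and in COR 3, 19 and 1. The SAG plates were not alike in cells, with 1, 10 and 7 on plate 1 and 2, 33 and 2 on plate 2, and few cells of either plate had both. Of the Fbn2-positive cells, 75% in PF and 87.8% in GP also had Fbn1 reads. Among the cells of PF with either fibrillin, 21 had more CPM of Fbn2 and 28 more of Fbn1.

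**Figure D2:**
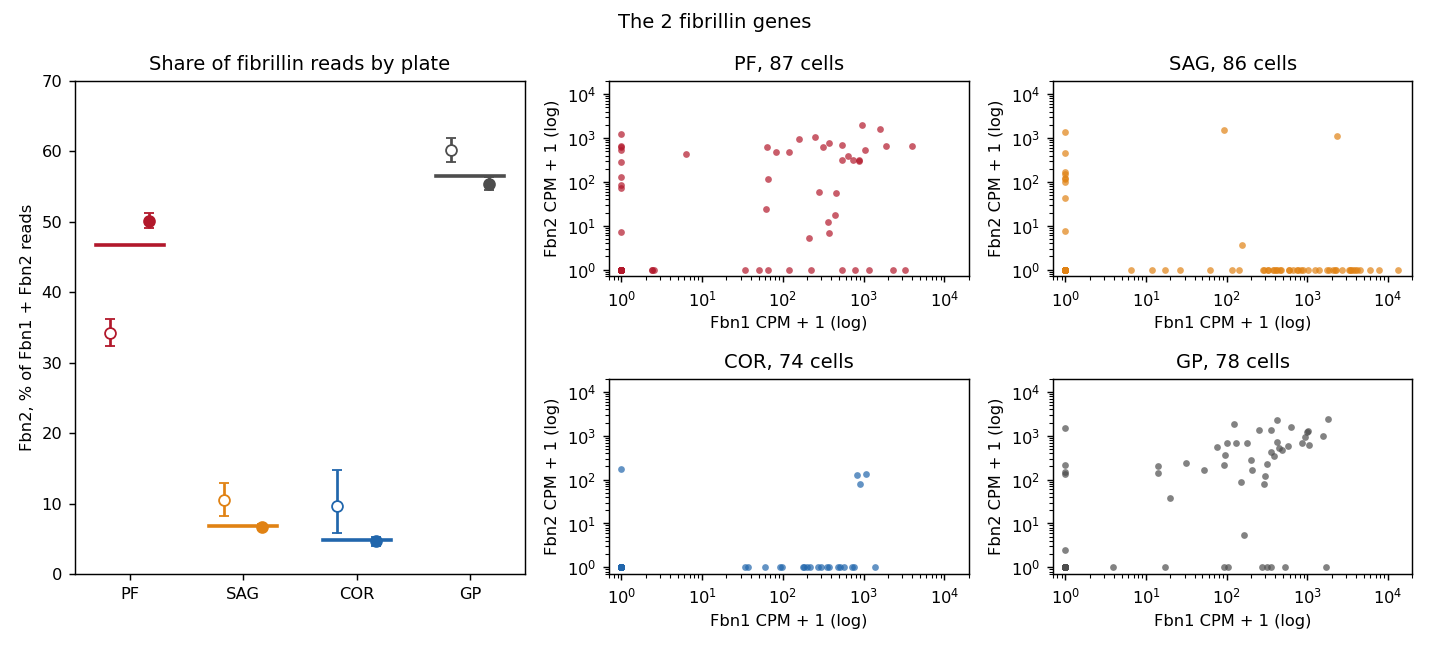
Left, Fbn2 as a percentage of Fbn1 plus Fbn2 reads by plate (open, plate 1; filled, plate 2; bar, tissue), with 95% exact binomial intervals. Right, Fbn1 and Fbn2 in every cell as CPM + 1 on log axes. PF and GP have many cells along both axes together, most positive cells of COR lie along the Fbn1 axis, and those of SAG lie along one axis or the other, 3 of 55 having reads of both.

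Eln encodes tropoelastin, the soluble unit of the elastic core (chr5:135179651-135223111). Its level was close in PF, COR and GP. The plates held 336 and 280.1 CPM in PF, 159 and 298 in COR and 419 and 300.1 in GP, so that PF overlapped with both other tissues, while both COR plates lay below both GP plates, the upper one by less than 2 CPM. The log2 ratio was 0.03 for PF to COR and -0.17 for COR to GP. SAG was lower, at 11.9 CPM on plate 1 and 126 on plate 2. Reads of Eln were unevenly spread over cells. In PF the median over 42 positive cells was 307 CPM while the highest cell had 12193 CPM. That cell, on plate 2, gave 21.3% of all Eln reads of PF and had reads of 7 of the 8 smooth muscle or pericyte markers listed. In GP 1 cell on plate 2 gave 25.9% of Eln reads, at 6298 CPM, and had reads of all 8 of these markers. Without these cells Eln was at 230.3 CPM in PF and 241 in GP. Vascular smooth muscle is a well-known source of elastin, and its part in these values was not tested.

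The 3 fibulins did not all have the same order of tissues. By tissue level, Fbln2 and Fbln5 were highest in GP, then in PF, COR and SAG, and Fbln1 was highest in PF. Fbln2, found at basement membranes and on microfibrils, was highest in GP, at 866 and 600.1 CPM on the plates, followed by PF at 199.8 and 152, COR at 54.7 and 51.01 and SAG at 8.29 and 20.3. No plates of any pair of tissues overlapped in that order. GP exceeded PF 4.005-fold and PF exceeded COR 3.14-fold. The share of thinned cells with Fbln2 reads was 61.2% in GP but close in PF and COR, at 25.7% and 22.5%. Fbln5, which tethers elastin to cells and is needed for elastic fibres to form, was also highest in GP, at 453 and 332 CPM, and was read in 58.2% of thinned GP cells. Its levels of 86.4 and 103 CPM in PF and 22.5 and 94.6 in COR overlapped. The SAG plates were at 29.2 and 6.19. Fbln1, a fibulin of elastic fibre cores and basement membranes, had another order, with tissue levels of 707 CPM in PF, 368 in COR and 212 in GP. Its plates overlapped between these 3 tissues, at 280.0 and 811 CPM in PF, 219.6 and 385 in COR and 309 and 192 in GP. In SAG Fbln1 was nearly missing, at 29.4 and 2.13 CPM, and 1 cell gave 87.1% of its 224 reads. Single cells also weighed on Fbln2 and Fbln5. The PF cell with the most Fbln2 reads, 19.3% of them, had reads of 4 of 5 Schwann or glial markers, and the COR cell with the most Fbln5 reads, 25.04% of them, had reads of 5 of 5. Without these 2 cells Fbln2 was at 133 CPM in PF and Fbln5 at 66.3 CPM in COR.

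Of the microfibril-associated proteins, Mfap2 (MAGP-1, which binds fibrillins along the microfibril) was the most widely read gene of the family. It had reads in 86.2% of PF cells, 87.8% of COR cells, 79.5% of GP cells and 63.3% and 66.1% of cells on the SAG plates. Its plates held 1302 and 3011 CPM in PF, 541 and 1994 in COR, 2928 and 1607 in GP and 367 and 302 in SAG, so that only SAG lay apart from the other tissues. Mfap4, which binds both elastin and fibrillin-1, was at 1215 and 1934 CPM in PF, 275 and 1860.3 in COR, 2269 and 1163 in GP and 111 and 259.5 in SAG. The COR plates differed 3.68-fold in Mfap2 and 6.75-fold in Mfap4, plate 1 with its 16 cells being the lower in both. Mfap5 (MAGP-2, a relative of Mfap2 that also binds Notch ligands) was rare. It was read in 10 PF cells, 11 GP cells, 4 COR cells and no SAG cell. Its levels were 130 and 43.8 CPM in PF, 89.5 and 36.8 in GP and 0 and 5.42 in COR. The 0 of 86 SAG cells allow a share of up to 3.49%, and the 0 of 16 cells of COR plate 1 a share of up to 18.75%. No fold is given against these zeros, since reads of one cell are not independent molecules. Emilin1, an elastin-binding glycoprotein of fibre surfaces that also restrains TGF-beta processing, was the most even gene of the family outside SAG. Its levels lay between 324 and 469 CPM on all 6 plates of PF, COR and GP. The share of positive cells was 69.2% to 78.4% by tissue and 67.2% to 93.75% by plate. SAG plate 1 was close to these, at 316 CPM with 21 of 30 cells positive, and SAG plate 2 had no read of Emilin1 in 56 cells, which allows a share of up to 5.36%.

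**Figure D3:**
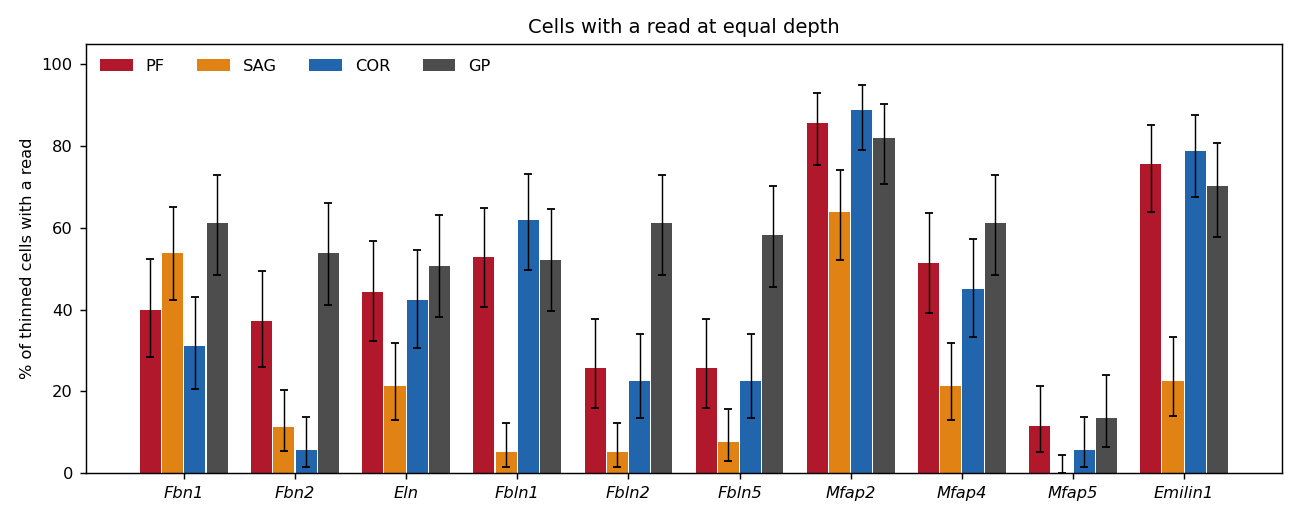
Percentage of cells with a read of each gene after thinning every cell to 100000 reads other than Rn45s (70 cells of PF, 71 of COR, 67 of GP and 80 of SAG), with 95% exact binomial intervals that cover counting error only. Mfap2 and Emilin1 are read in most cells of PF, COR and GP, Fbn2 in 37.1% of PF and 5.63% of COR cells, and Fbln2 and Fbln5 mostly in GP.

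Between PF, COR and GP, the members called as different were Fbn2, Fbln2, Fbln5 and Mfap5. A gene was called between 2 tissues where its log2 ratio of CPM + 1 was at least 1 in size and all 4 plate ratios had one sign. Over all genes with at least 10 CPM in either tissue, 5.43% were called higher in PF than in COR and 6.36% higher in COR. Of the family, 3 were called higher in PF (Fbn2, Fbln2 and Mfap5) and none higher in COR. The median log2 ratio of the 10 genes was 0.54, beside 0.03 over all 9514 genes. Between PF and GP, 7.67% of all genes were called higher in PF and 8.73% higher in GP. Of the family, none was called higher in PF and 2 higher in GP, Fbln2 with a log2 ratio of -2.00 for PF against GP and Fbln5 with -1.81. Between COR and GP, 6.33% of all genes were called higher in COR and 7.09% higher in GP, and 4 of the family were called higher in GP (Fbn2, Fbln2, Fbln5 and Mfap5). The largest of these ratios was that of Fbn2, at -5.16 for COR against GP. The comparisons share tissues, so they are not separate pieces of evidence. Eln, Fbn1, Fbln1, Mfap2, Mfap4 and Emilin1 were called in none of the 3 comparisons, although Fbln1 was called higher in PF than in GP under TMM or DESeq2 scaling. Without COR plate 2, which leaves the 16 cells of plate 1 for COR, 8 of the family were called higher in PF than in COR and 8 higher in GP than in COR. The shares over all genes rose with them, to 18.3% higher in PF and 19.5% higher in GP.

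**Figure D4:**
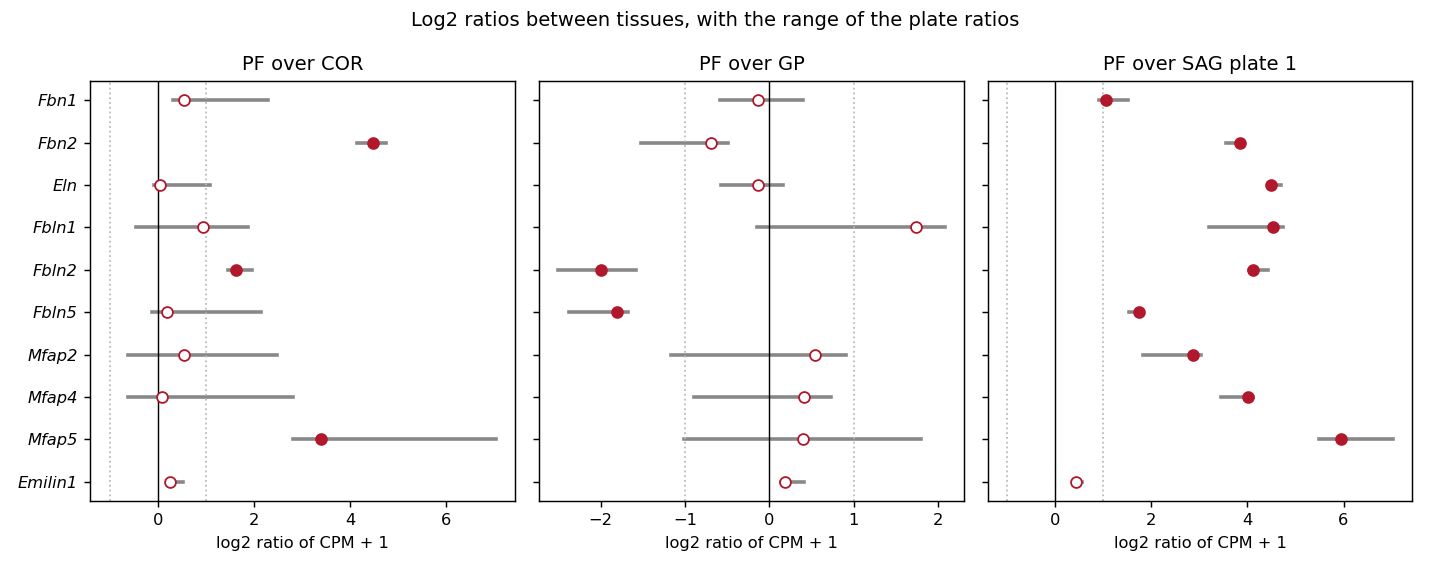
Log2 ratio of CPM + 1 of PF to COR, GP and SAG plate 1 for each gene. Points are tissue ratios, filled where called, grey lines run from the lowest to the highest plate ratio, and dotted lines mark a size of 1. Fbn2, Fbln2 and Mfap5 are called higher in PF than in COR, and 9 of the 10 genes are called higher in PF than on SAG plate 1.

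The family was low in SAG, on the ordinary plate as well as on the other. Over both plates, 16.9% of all genes were called higher in PF than in SAG and 13.2% higher in SAG, and 9 of the 10 genes were called higher in PF, the exception being Fbn1. Against GP, 18.3% of all genes were called higher in GP and 13.3% higher in SAG, and the same 9 genes were called higher in GP. Against COR, 18.9% of all genes were called higher in COR and 13.5% higher in SAG. There, 6 of the family were called higher in COR (Eln, Fbln1, Fbln2, Mfap2, Mfap4 and Emilin1) and 1, Fbn2, higher in SAG. With Rn45s counted in the total, 24.9% of genes were called higher in PF and 3.32% in SAG, 31.2% higher in COR and 3.43% in SAG, and 26.4% higher in GP and 4.001% in SAG, and the numbers of members called did not move. In that setting the median log2 ratios of all genes were 2.20 in PF against SAG, -2.24 in SAG against COR and -2.09 in SAG against GP. With Rn45s left out, these medians were 0.29 in PF against SAG, -0.29 in SAG against COR and -0.23 in SAG against GP. The calls of each setting are to be read against its medians. For SAG plate 1 alone the medians of all genes were near 0, at -0.003 for PF to SAG plate 1 and 0.02 for SAG plate 1 to COR. With plate 1 alone, 16.1% of all genes were called higher in PF and 17.2% higher in SAG, and 9 of the family were called higher in PF, all but Emilin1. Against GP, 16.4% of all genes were called higher in GP and 17.6% higher in SAG plate 1, and again 9 of the family were called higher in GP, all but Emilin1. Against COR, 15.5% of all genes were called higher in COR and 16.5% higher in SAG plate 1, and 5 of the family were called higher in COR (Eln, Fbln1, Fbln2, Mfap2 and Mfap4). On plate 1 the call of Fbn2 above COR was gone, with a log2 ratio of 0.62, and the median of the family was 3.93 for PF to SAG plate 1. The largest ratios to plate 1 after Mfap5 were 4.54 for Fbln1 and 4.50 for Eln. Marker sums of 3 cell types differed between SAG and other tissues, though not every marker or plate went the same way. All 8 chondrocyte markers had reads on both SAG plates, and their sum was 20540 and 12138 CPM there, against 158 and 289 in PF, 65.8 and 179.7 in COR and 902 and 6223 in GP. Without the cell with the most marker reads the sum was 12340 CPM on SAG plate 1 and 2023 on GP plate 2. Matn1 was at 0 in PF and COR. The 8 osteoblast markers, all with reads in every tissue, summed to 61760 and 14736 CPM on the SAG plates, to 50706 and 111699 in GP and to between 101076 and 186920 on the plates of PF and COR. On SAG plate 1 a single cell gave 64.1% of that sum, which was 24158 CPM without it. Runx2 of this list was called higher in SAG than in PF and in GP. The 7 fibroblast markers summed to 3398 and 1066 CPM on the SAG plates, the first of which was 1939 without its top cell, and to between 10333 and 23168 CPM on the plates of the other tissues. Col3a1 made up most of this sum in every tissue and was called lower in SAG than in PF, COR and GP, and Dpt, Pi16 and Ly6a were at 0 in SAG. Dpt was also at 0 in PF, and Pi16 in COR and GP. Pdgfra was called higher in SAG than in GP. The part of these cell types in the low family level of SAG was not tested. Among thinned cells of SAG plate 1, Eln was read in 3 of 18 cells with Col2a1 reads and in 2 of 7 cells without. Mfap4 (7 and 3 cells) differed little, and Fbln1 (1 and 1) and Fbln2 (0 and 1) were read in too few cells to compare. More frequent with Col2a1 were Fbn1 (9 and 1), Fbn2 (4 and 1) and Fbln5 (3 and 0). So were Mfap2 (12 and 3) and Emilin1 (14 and 4). With only 7 cells without Col2a1, these directions rest on few cells.

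Within PF, COR and GP most of the family followed 2 markers in opposite directions, though several members barely followed Ibsp in COR. Thinned cells were divided by whether they had a read of 1 marker from each of 4 marker lists, Ibsp for osteoblasts, Col2a1 for chondrocytes, Tnmd for tenocytes and Acta2 for smooth muscle or pericytes, all 4 chosen after the data had been seen. Bone sialoprotein, the product of Ibsp, is a matrix protein of mature osteoblasts, and tenomodulin, the product of Tnmd, is a membrane protein of tendon and ligament cells. In PF, 22 of 70 cells had Ibsp reads. None of these 22 cells had a read of Fbn1, against 28 of 48 cells without Ibsp. For Fbn2 the numbers were 1 of 22 and 25 of 48, for Eln 2 of 22 and 29 of 48, and for Mfap4 2 of 22 and 34 of 48. Mfap2 and Emilin1 were the exceptions, read in 16 and 15 of the 22 cells with Ibsp, although at lower levels. The mean of Mfap2 was 215 CPM in them and 3261 CPM in cells without Ibsp. In COR likewise 0 of 17 cells with Ibsp and 22 of 54 without had Fbn1 reads. Mfap4 (2 and 30 cells), Mfap2 (12 and 51), Fbln5 (2 and 14) and Mfap5 (0 and 4) were also less frequent with Ibsp. Fbn2 did not differ, with 1 of 17 and 3 of 54, and Fbln1 was nearly as frequent in both, with 10 of 17 and 34 of 54. Eln (6 and 24), Fbln2 (3 and 13) and Emilin1 (13 and 43) differed little. In GP the division was less sharp than in PF for Fbn1, read in 5 of 13 cells with Ibsp and 36 of 54 without. Eln (4 and 30 cells), Fbln1 (4 and 31) and Mfap4 (4 and 37) were also less divided there than in PF. Fbn2 (2 and 34) was divided about as widely as in PF, and Fbln2 (2 and 39) and Mfap2 (7 and 48) more widely. In SAG only 7 thinned cells had Ibsp reads, 3 on plate 1 and 4 on plate 2. None of the 7 had Fbn1 reads, against 10 of 22 and 33 of 51 cells without Ibsp on the plates. Eln went the other way there, with 1 of 3 against 4 of 22 on plate 1 and 3 of 4 against 9 of 51 on plate 2.

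In PF, COR and GP, reads of most members were more frequent in cells with Tnmd reads. In PF, 29 of 70 thinned cells had Tnmd reads. Fbn2 was read in 21 of these and in 5 of the 41 others, Fbn1 in 21 and 7, Eln in 23 and 8, and Mfap4 in 26 and 10. In GP, Fbn2 was read in 30 of 38 cells with Tnmd and in 6 of 29 without, and Fbln2 in 32 and 9. In COR, Eln was read in 11 of 14 cells with Tnmd and in 19 of 57 without. Mfap5 did not follow Tnmd, with 4 of 29 and 4 of 41 cells in PF and 5 of 38 and 4 of 29 in GP. In SAG, where 7 thinned cells of plate 1 and 2 of plate 2 had Tnmd reads, Mfap4 was read in 5 of the 7 and in 5 of 18 without on plate 1. Fbn2 and Fbn1 did not follow Tnmd there, with 1 of 7 and 4 of 18 cells for Fbn2 and 3 of 7 and 7 of 18 for Fbn1 on plate 1. On plate 2, Fbn1 was read in 0 of 2 cells with Tnmd and 33 of 53 without. Fbn2 is given here by Tnmd for COR and PF, although only 4 thinned COR cells had Fbn2 reads. Among cells with Tnmd, Fbn2 was read in 3 of 14 in COR, at a mean of 22.1 CPM, and in 21 of 29 in PF, at a mean of 338 CPM. Among cells without Tnmd it was read in 1 of 57 in COR and in 5 of 41 in PF. By tissue, the summed tenocyte markers were highest in GP and lowest in COR, as Fbn2 was. Not every marker had this order. Scx (8.85 CPM in PF and 11.1 in COR), Thbs4 (0 and 1.09) and Kera (0 and 2.87) were lower in PF than in COR. On SAG plate 1, unlike Fbn2, the summed level of these markers was above both PF plates. Their sum over 6 genes was 12079 and 7614 CPM on the GP plates, 3665 and 3042 in PF, 4621 and 1862 in SAG and 1318 and 1406 in COR, with Thbs4 and Kera at 0 in PF. Fmod made up most of the sum in every tissue. Tnmd itself was at 2927 and 1913 CPM in GP, 311 and 315 in PF, 76.3 and 84.1 in COR and 77.7 and 2.32 in SAG. The part of tendon or ligament cells in the tissue levels was not tested.

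**Figure D5:**
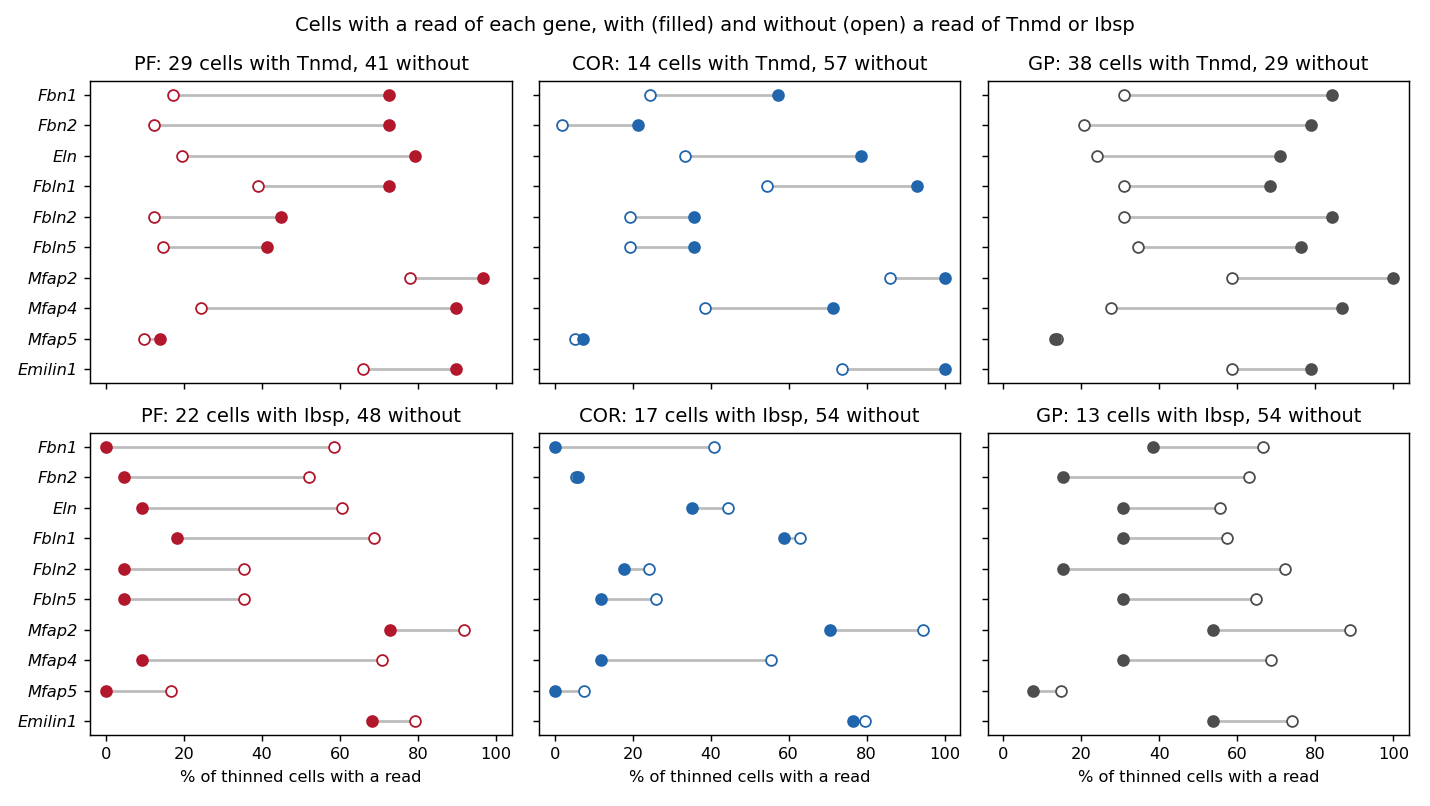
Percentage of thinned cells of PF, COR and GP with a read of each gene, among cells with (filled) and without (open) a read of Tnmd (top) or of Ibsp (bottom). Filled points lie to the right for Tnmd and to the left for Ibsp for most genes, and Fbn2 is read in at most 21.4% of each of the 4 sets of COR cells.

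The other 2 markers gave no common direction. Acta2 was read in 23 thinned cells of PF, 27 of COR, 13 of GP and none of SAG. Fbn1 was read in 12 of the 23 PF cells with Acta2 and in 16 of 47 without, but in 5 of 27 and 17 of 44 in COR. The mean of Eln was 1137 CPM in PF cells with Acta2 and 137 CPM in those without, a mean that contains the single cell with 7 smooth muscle markers. Col2a1 was read in 6 thinned PF cells, all 6 of which had reads of Fbn1 and Fbln1, and in 18 of GP, of which 10 had Fbn1 reads, against 31 of 49 without. Endothelial markers summed to at most 16.4 CPM and haematopoietic markers to at most 24.8 CPM in any tissue, with Pecam1, Emcn, Tie1 and Cd52 at 0 in all 4.

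Across the cells of PF, COR and GP, Mfap4 was the gene most like the fibrillins and elastin. Likeness was the mean over PF, COR and GP of the Pearson correlation of log2(CPM + 1) across the cells of one tissue, among 4064 or 4065 genes read in at least 20% of cells of each of these tissues, and SAG was left out because of its plates. All genes of a cell share its library and depth, and the values are descriptions. Mfap4 ranked first for Fbn2 (mean r 0.58), for Fbn1 (0.64) and for Eln (0.59). For Fbn2 the correlation was 0.69 in PF and 0.82 in GP but 0.23 in COR, where 4 cells had Fbn2 reads. On SAG plate 1, which did not enter this mean, the r with Mfap4 was -0.02 for Fbn2, 0.15 for Fbn1 and 0.33 for Eln. There Fbn1 stood at -0.36 with Fbn2 and -0.29 with Eln over 30 cells, of which 1 had reads of both fibrillins. Igf1, Igfbp3, 1500015O10Rik and Col14a1 followed for Fbn2, with means of 0.51 to 0.53. For Fbn1 the next were 1500015O10Rik, Col14a1, Igf1 and Meg3, at 0.60 to 0.63, and for Eln they were Fbn1, Igf1, Col14a1 and Loxl1, at 0.53 to 0.56. Igf1 encodes a growth factor, Igfbp3 a binding protein of it, Col14a1 a collagen of fibril surfaces in tendon and skin, Meg3 an imprinted long non-coding RNA and Loxl1 a lysyl oxidase that acts on elastin. Within the family the closest pair was Mfap2 and Mfap4, at a mean r of 0.70. The least alike was Fbln2 and Mfap5, at 0.05, and Mfap5 was read in few cells.

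Genes that act on or beside these fibres were followed in 6 lists, 43 genes in all. Calls in them were spread over both directions. Of the 43, 3 were called higher in PF than in COR and 2 higher in COR, beside 5.43% and 6.36% of all genes. Between PF and GP, 4 were higher in PF and 7 in GP, beside 7.67% and 8.73%. Between COR and GP, 3 were higher in COR and 8 in GP, beside 6.33% and 7.09%. Against SAG, 7 were higher in PF and 7 in SAG, beside 16.9% and 13.2%. In the same way, 4 were higher in COR and 5 in SAG, beside 18.9% and 13.5%. Lastly, 9 were higher in GP and 6 in SAG, beside 18.3% and 13.3%. The shares cover genes of at least 10 CPM in either tissue, a level that 34 to 36 of the 43 reached. The counts were not limited to these.

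Among the enzymes that crosslink elastin, Lox was the highest of the 5 lysyl oxidases per length. Like most of the family it was low in SAG. It stood at 1260.3 and 979.5 CPM on the PF plates, 1309 and 981 in COR, 591 and 806 in GP and 394 and 164 in SAG, and it was called lower in SAG than in each other tissue. Outside SAG it did not run with the family, being highest on COR plate 1 and lowest on GP plate 1, the plates with the lowest and the highest sum of the 10 genes. Loxl2 was at 42.6 CPM in PF and 149 in GP and was called lower in PF than in all 3 other tissues. Loxl4 was at 56.2 and 79.7 CPM on the SAG plates and 8.80 in COR. Of the other fibulins and the EMILIN family, Efemp2 (fibulin-4, needed for elastic fibres) was the highest, at 308 CPM in PF and 209.6 and 24.9 on the SAG plates, with GP at 248 and COR at 181. Efemp1 (fibulin-3) was read in COR, at 29.3 and 109.6 CPM on the plates, and on SAG plate 2, and had 0 reads in PF, GP and SAG plate 1. Fbln7 was at 344 and 134 CPM on the SAG plates and 1.59 in COR, and Emilin3, a relative of Emilin1 known from cartilage, was at 126 CPM in GP and 46.4 and 0 on the SAG plates. Of the latent TGF-beta binding proteins, which dock on fibrillin, Ltbp3 was the highest per length and was called in none of the 6 comparisons. Ltbp2 was called higher in SAG (445 and 169.9 CPM on the plates) and in PF (259.9 CPM) than in GP (65.8 CPM), and Ltbp1 higher in GP (412 CPM) than in COR (199 CPM) and SAG (39.1 and 298 CPM on the plates). None of the 4 was called between PF and COR or between PF and SAG.

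Of the ADAMTS and ADAMTS-like proteins that bind microfibrils, Adamts10 was the highest per length and was called higher in PF (111.9 CPM) than in COR (45.3 CPM). Adamtsl5 was at 40.96 CPM in PF and had 0 reads in GP and SAG, Adamtsl1 was at 55.3 CPM in PF and 11.2 and 0 on the SAG plates, and Adamtsl3 was at 73.8 CPM in GP and 8.32 in PF. Among genes of elastin breakdown and of the elastin receptor complex, 2 gelatinases set SAG apart. Mmp9 held 7222 CPM on SAG plate 1 and 1963 on plate 2, against 17.2 and 17.6 in PF, 0 and 55.7 in COR and 0 and 252 in GP. Mmp2, the highest of this list per length, held 2534 and 13044 CPM in SAG and 1007 to 2239 CPM on all plates of the other tissues. Both were called higher in SAG than in each of the 3 other tissues. Mmp12, the macrophage elastase, had 0 reads in all 4. Glb1, whose splice variant is the elastin-binding protein of that complex, was at 66.5 CPM in COR and 14.1 and 0 on the SAG plates. Among integrin subunits that bind fibrillins or fibulins, Itgb1 was the highest per length, Itga5 was called higher in SAG (78.9 and 362 CPM on the plates) than in GP (68.2 and 75.5 CPM), and Itga8, at 22.1 CPM in GP, had 0 reads in SAG. Itgb8 had 0 reads in PF and 12.8 CPM in GP.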

How the data were processed

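The authors prepared single-cell libraries by SMART-seq2 and Nextera XT. The submitters' processing notes name STAR 2.5.3a, HTSeq, Seurat 2.3.0, R 3.4.4 and mm9. The annotation and the use of strand are not given in the sources used here, and labels and methods name different sequencers. The deposited values were unnormalized counts of reads, without molecular identifiers. Groups came from sample titles. A single SAG cell, whose description names a PF plate, was kept as SAG. The genes and lists were chosen with earlier results of these data known. Reads of cells with at least 500 genes and 10000 reads were summed per tissue and plate, and log2((CPM + 1)/(CPM + 1)) was computed, which understates changes of low genes. Calls needed a size of 1 and plate ratios of one sign, with genes of at least 10 CPM as background. Named pathway genes were, per list, up to 3 called genes with the largest ratio plus the highest per length, over exon lengths of the mm9 annotation. Scripts (Python 3.11.15, pandas 2.3.3, scipy 1.17.1) were tested on simulated data. edgeR 4.0.16 and DESeq2 1.42.0 supplied alternative scaling only. Intervals are at 95% (exact binomial) and limits of 0 are 3 counts. Doublets were not called, as cells were sorted singly, and no 2 cells were identical. The 0 columns without a cell left nothing out.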

Additional observations from a re-analysis of the deposited data

How the results depend on the processing

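No paired analysis was possible because the results come from no test. The alternatives gave 96 counts of called members, of which 92 stayed within 1.5 times the count above. Without a minimum size, 5 members were called between PF and COR and 4 between PF and GP, while the shares of all genes called rose to 14.6% and 17.8% and to 17.4% and 19.2%. Leaving out 1 plate at a time gave 3 to 8 called members between PF and COR and 4 to 8 between COR and GP, the 8 in both being without COR plate 2, where 18.3% of all genes were called higher in PF than in COR and 19.5% higher in GP. The share of Fbn2 in fibrillin reads then ran from 34.2% to 50.1% in PF, 55.4% to 60.2% in GP, 4.63% to 9.63% in COR and 6.71% to 10.5% in SAG. With a stricter cell filter of 1500 genes and 50000 reads, which only cells of plate 1 passed in SAG, that share was 10.2% in SAG. With the mean of single-cell CPM, Fbn1 was also called higher in PF than in COR. The cause of these shifts was not tested. Of 34 called log2 ratios, none changed sign in 476 alternative values, which include TMM factors, DESeq2 size factors, pseudocounts of 0.1 and 10 and the loss of the cell with the most reads. In 14 of these values the call was lost, over 8 ratios that all involve SAG. Fbn2 was not called between PF and SAG without PF plate 2 (0.99) or SAG plate 1 (0.65), nor Mfap4 between SAG and COR with DESeq2 size factors. Eln, Mfap2 and Mfap4 lost their calls between SAG and COR without COR plate 2. Emilin1 lost its 3 calls, and Fbn2 that between SAG and COR, without SAG plate 2 or with the stricter filter. Of 840 alternative log2 ratios in all, 103 moved by more than the standard deviation of the plate ratios. Thinning, or asking for 5 reads, left all 80 shares of cells within their intervals. Thinning kept all 4 cells with Fbn2 and all 4 with Mfap5 in COR, and these values rest on few cells, as do those of COR plate 1, which holds 16 cells.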
